A study of Mus musculus with 24 samples.

Results

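The genes described here are 10 chaperones and folding partners of collagen, chosen by name: Serpinh1, Fkbp7, Fkbp9, Fkbp10, Fkbp14, Colgalt1, Tmem38b, P3h2, P3h3 and P3h4. All 10 were found among the 54232 genes of the count table, and all 10 passed the filter on low counts that left 16592 genes for testing. Polyadenylated RNA was sequenced from osteoblasts, the cells that make bone matrix, cultured from pooled skull bones (calvariae) of newborn mice. The mice were wild type (WT) or of a high bone mass line (HBM). The labels do not give the allele that HBM mice carry, and name no other treatment. The labels state 3 independent cultures from pooled calvariae and give each library a batch number, 18, 19 or 21. Libraries of a genotype with the same batch number on different days are read here as one culture sampled again, which the labels do not say outright. RNA was taken at days 0, 10, 15 and 21 of osteoblast differentiation, which makes 24 libraries in 8 groups of 3.

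Collagen chains are modified and folded in the endoplasmic reticulum before they are secreted. Hydroxylases and sugar transferases act on the unfolded chains, peptidyl-prolyl isomerases speed the turning of proline bonds, and dedicated chaperones hold the folded triple helix until it reaches the Golgi. Inherited loss of several of these genes in people causes brittle bones, and osteoblasts secrete mostly collagen I.

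Library totals ran from 28039095 to 46987734 counts, and the 10 genes together took 0.496% to 0.852% of them. All 6 osteoblast markers, Runx2, Sp7, Alpl, Bglap, Ibsp and Col1a1, had counts in every group. At day 0, however, Bglap (0.0519 to 0.222 CPM, counts scaled to library size) and Ibsp (0.136 to 0.491 CPM) were near 0. Alpl ran from 0.441 to 28.2 CPM on that day. The 3 endothelial markers summed to at most 2.15 CPM, the usual count scaled to library size. Markers of macrophages were detected in every group (7 of 7) and rose from 39.9 to 1160 summed CPM at day 0 to 1470 to 10400 on the later days. On the later days their sum was at 7170 to 10400 CPM in batch 21 and at 1470 to 5710 CPM in the other batches. Lyz2 made up most of this sum, at 6180 of 7820 CPM in WT batch 21 at day 10. Adgre1, Csf1r, Cd68 and C1qa were also highest in batch 21 at day 10 in both genotypes. Marco in WT was not, at 212 CPM in batch 18 and 86.4 CPM in batch 21 at day 10, nor was Vsig4, at 6.99 and 3.43 CPM. Summed over the 6 cartilage markers, WT batch 19 at day 0 was high, at 16500 CPM against 1340 and 4020 CPM in the other WT libraries of that day. So was HBM batch 19, at 9010 CPM against 858 and 1780 CPM. Col2a1 alone was at 15900 CPM in this WT library and 8770 CPM in this HBM library. Acan, Col9a1 and Comp were also highest in batch 19 in both genotypes. Sox9 was not, at 78.6, 93.8 and 112 CPM in WT and 68.3, 62.9 and 93.7 CPM in HBM (batches 18, 19 and 21). The pools also differed in sex. The transcript of the inactive X chromosome, Xist, in batch 19 had 17.3 to 42.9 CPM in the WT libraries against 153 to 231 CPM in the HBM libraries. In batch 18 these ranges were 294 to 342 and 257 to 567 CPM, and in batch 21 the highest of the 8 values was 0.0357 CPM. The Y-linked Ddx3y did not overlap between the genotypes in batch 18, at 22.0 to 34.7 CPM in WT and 11.8 to 19.6 CPM in HBM. In bulk RNA, fewer cells of a type and less RNA per cell cannot be told apart.

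The promoter windows of 3 of the genes, taken from those with a matched window, are shown first so that the letters stand beside the values. Each window runs from 250 bases before the gene start to 50 after it, on the gene's own strand, and is taken from RefSeq (build GRCm38.p6). RefSeq windows were matched for 6 of the 10 genes: Serpinh1, Fkbp7, Fkbp9, Fkbp14, Colgalt1 and P3h3. Capitals mark 4 short motifs searched on both strands, none of which overlap in these windows. CCACG is the core of the endoplasmic reticulum stress element and CCAAT is the CCAAT box. TGACG is the core of the cyclic AMP response element, and GAANNTTC is a pair of heat shock units.
Serpinh1, chr7:99353190-99353489, minus strand: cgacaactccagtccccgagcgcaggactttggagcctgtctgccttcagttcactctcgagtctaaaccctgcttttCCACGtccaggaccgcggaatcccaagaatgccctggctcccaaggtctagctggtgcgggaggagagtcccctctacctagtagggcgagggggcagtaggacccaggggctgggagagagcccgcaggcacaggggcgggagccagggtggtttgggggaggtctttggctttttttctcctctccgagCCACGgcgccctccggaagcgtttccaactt
Fkbp7, chr2:76673049-76673348, minus strand: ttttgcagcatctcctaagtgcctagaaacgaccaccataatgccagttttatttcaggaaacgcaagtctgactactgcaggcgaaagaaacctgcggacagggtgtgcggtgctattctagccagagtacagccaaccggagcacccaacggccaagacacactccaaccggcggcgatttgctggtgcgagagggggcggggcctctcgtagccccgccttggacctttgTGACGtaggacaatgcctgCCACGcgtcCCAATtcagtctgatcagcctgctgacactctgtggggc
Colgalt1, chr8:71610774-71611073, plus strand: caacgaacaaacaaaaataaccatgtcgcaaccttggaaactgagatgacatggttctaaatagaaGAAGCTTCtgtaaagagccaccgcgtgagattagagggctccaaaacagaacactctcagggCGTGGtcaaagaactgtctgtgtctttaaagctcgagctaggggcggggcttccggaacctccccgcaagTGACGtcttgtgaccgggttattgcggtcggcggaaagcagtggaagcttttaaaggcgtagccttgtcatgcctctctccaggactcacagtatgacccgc

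The Serpinh1 window holds CCACG at 2 places and none of the other 3 motifs. The Fkbp7 window holds CCACG once, a CCAAT box once and a TGACG core once. The Colgalt1 window holds CCACG (on the opposite strand), TGACG and GAANNTTC once each. Of the other matched windows, that of Fkbp9 holds CCACG once, and those of Fkbp14 and P3h3 hold none of the 4. Among 32851 RefSeq windows of the same length, 32.8% hold CCACG, 37.4% CCAAT, 20.8% TGACG and 7.86% GAANNTTC. Fkbp10 and P3h4 lie head to head on chromosome 11 of mm10: P3h4 occupies 100408456 to 100414836 on the minus strand and Fkbp10 100415697 to 100424824 on the plus strand. Their starts are 861 bases apart, with 0 annotated genes between them. Exons of 4 of the 10 genes overlap exons on the opposite strand: Fkbp10 with Nt5c3b (193 bases), Fkbp14 with Plekha8 (208 bases), Colgalt1 with Unc13a (495 bases) and P3h2 with Gm4524 (1055 bases). The strand setting of the authors' counting is not given in the sources used here, so reads of such partners could not be told apart.

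Levels between genes were compared per kilobase of exon. In WT cultures at day 10 the collagen chaperone Serpinh1, which encodes HSP47, was by far the highest at 1230 ± 138 CPM per kb (SD, n = 3). The isomerases Fkbp9, at 408 ± 64.5, and Fkbp10, at 218 ± 46.1 CPM per kb, came next. The prolyl 3-hydroxylase family gene P3h3 stood at 105 ± 16.8, the isomerase Fkbp7 at 90.1 ± 23.2, the hydroxylase partner P3h4 (also named Sc65) at 76.8 ± 6.62 and the galactosyltransferase Colgalt1 at 67.8 ± 6.62 CPM per kb. The ranges of these 4 overlapped from each gene to the next. The isomerase Fkbp14 followed at 42.8 ± 3.26 CPM per kb. The potassium channel gene Tmem38b (TRIC-B), at 3.53 ± 0.553, and the prolyl 3-hydroxylase P3h2, at 0.984 ± 0.242 CPM per kb, were far lower.

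**Figure D1:**
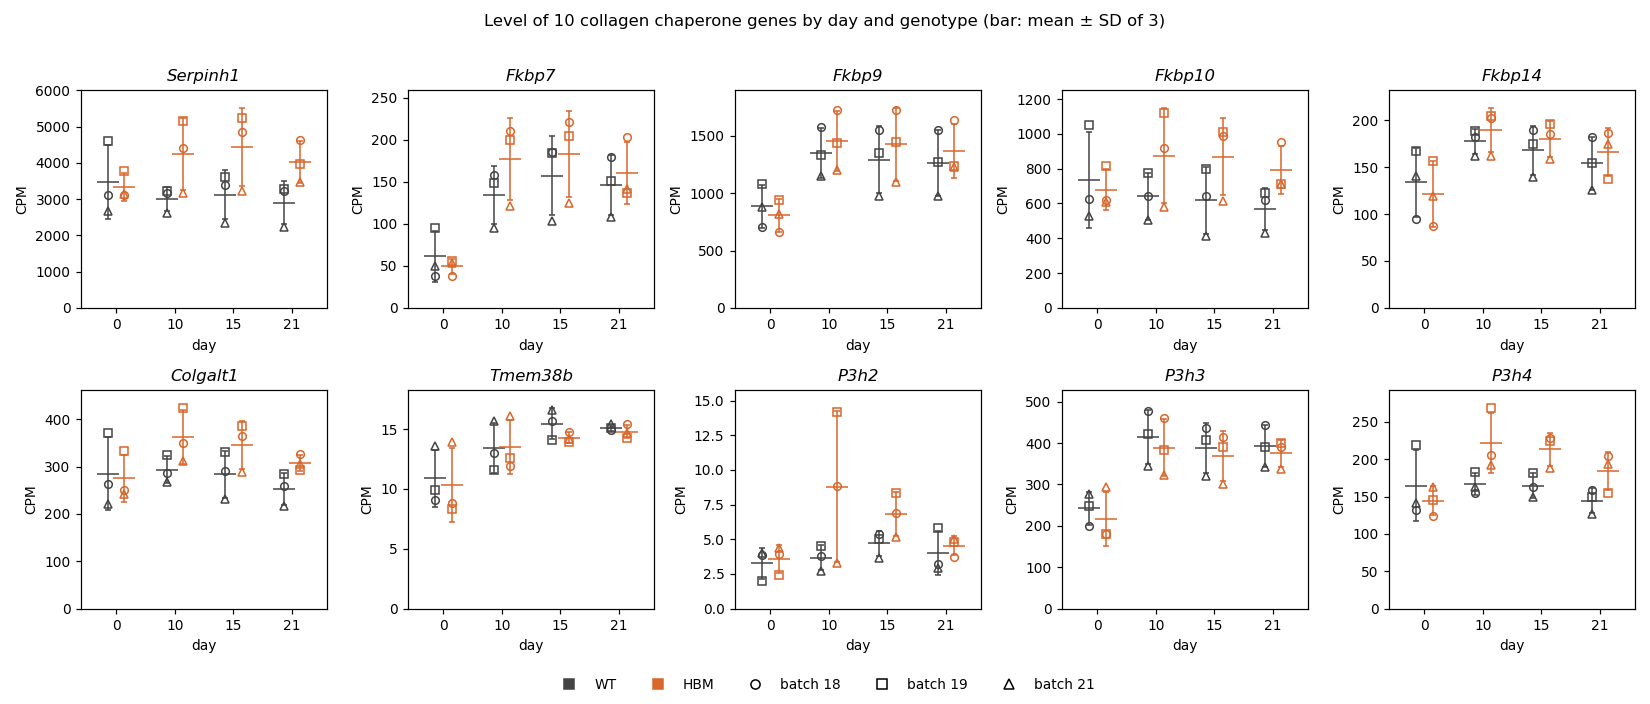
Level of each gene in CPM (linear axes from 0) by day, with one point per library, a symbol for each batch, and a bar and whiskers for the mean ± SD of 3 cultures (WT grey, HBM orange). Serpinh1 reaches 5240 CPM in the HBM culture of batch 19 at day 15, and P3h2 never exceeds 14.2 CPM.

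From day 10 on, several of these genes were higher in HBM than in the WT culture of the same batch, without passing the test on unpaired samples. Serpinh1, Fkbp10, Colgalt1 and P3h4 were higher in HBM in 9 of 9 batch pairs of days 10, 15 and 21, a pattern that 6.16% of all genes tested shared. The isomerases Fkbp7 and Fkbp9 and the hydroxylase P3h2 were higher in 8 of 9 pairs and Fkbp14 in 6. Tmem38b was higher in 3 and P3h3 in 1. If a batch number marks one culture on all days, the 9 pairs come from 3 cultures per genotype and are not 9 independent observations.

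Serpinh1 binds the folded collagen helix. At day 10 it stood at 3180, 3210 and 2610 CPM in WT and at 4400, 5150 and 3180 CPM in HBM (batches 18, 19 and 21 in this order, here and below). Each HBM library exceeded the WT library of its batch, but HBM batch 21 lay within the WT range. At day 15 the values were 3390, 3620 and 2350 CPM in WT and 4860, 5240 and 3220 CPM in HBM, again with an overlap through batch 21. At day 21 they were 3210, 3270 and 2220 CPM in WT and 4640, 3960 and 3470 CPM in HBM, and all 3 HBM libraries lay above all 3 WT libraries. The log2 difference was 0.50 ± 0.25 (SE) at day 10, 0.51 ± 0.25 at day 15 and 0.47 ± 0.25 at day 21. None passed edgeR's quasi-likelihood test (adjusted p = 1 on each day). With each HBM library paired with the WT library of its batch and day, the adjusted p was 0.0825, 0.0919 and 0.113. This paired fit had been introduced by an earlier analysis of these counts after its results were seen. Its values and calls here and below carry that limit.

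Fkbp10 encodes FKBP65, an isomerase that works on procollagen together with HSP47. It stood at 645, 774 and 503 CPM in WT and 922, 1120 and 581 CPM in HBM at day 10. At day 21 it stood at 618, 660 and 431 CPM in WT and 953, 712 and 711 CPM in HBM, with no overlap of the groups. The log2 difference was 0.45 ± 0.30 at day 10, 0.49 ± 0.30 at day 15 and 0.48 ± 0.30 at day 21, with an adjusted p of 1 by edgeR's quasi-likelihood test and of 0.156, 0.121 and 0.133 in the paired fit.

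Colgalt1 adds galactose to hydroxylysine of collagen chains. At day 21 it stood at 258, 284 and 217 CPM in WT and at 326, 293 and 306 CPM in HBM, so that the groups did not overlap. On days 10 and 15 they did overlap, and the log2 difference was 0.30 ± 0.19 at day 10 and 0.28 ± 0.19 at day 21 (adjusted p = 1 by edgeR's quasi-likelihood test, and 0.14 and 0.182 in the paired fit).

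P3h4 forms a complex with P3h3 that is needed for lysine hydroxylation of collagen. At day 10 it stood at 155, 183 and 163 CPM in WT and at 205, 268 and 192 CPM in HBM. At day 15 it stood at 163, 182 and 149 CPM in WT and at 228, 224 and 188 CPM in HBM. The groups did not overlap on these days, but they did at day 21, where the HBM library of batch 19 was at 155 CPM. The log2 difference was 0.41 ± 0.18, 0.37 ± 0.18 and 0.35 ± 0.18 on the 3 days, with an adjusted p of 1 by edgeR's quasi-likelihood test. In the paired fit the adjusted p was 0.18, 0.252 and 0.285. All 3 HBM libraries lay above all 3 WT libraries for 5.98% of genes at day 10, 3.87% at day 15 and 4.29% at day 21. Of the 10 genes this held for P3h4 at days 10 and 15, and for Serpinh1, Fkbp10 and Colgalt1 at day 21.

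P3h2 hydroxylates prolines of collagen, mostly in basement membranes. At day 10 it stood at 3.81, 4.48 and 2.7 CPM in WT and at 8.86, 14.2 and 3.31 CPM in HBM. The batch 18 and 19 cultures of HBM were high, and that of batch 21 lay within the WT range. The log2 difference was 1.26 ± 0.41 (unadjusted p = 0.00684, adjusted p = 1 by edgeR's quasi-likelihood test) and 1.10 ± 0.23 in the paired fit (adjusted p = 0.0442). It was 0.53 ± 0.41 at day 15 and 0.18 ± 0.41 at day 21, and passed in neither fit there.

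P3h3, the partner of P3h4, did not share the pattern: at day 10 it stood at 477, 422 and 345 CPM in WT and at 461, 383 and 323 CPM in HBM (log2 difference -0.09 ± 0.20). Tmem38b differed by 0.01 ± 0.18 at day 10, -0.12 ± 0.18 at day 15 and -0.03 ± 0.18 at day 21. Fkbp7 differed by 0.40 ± 0.34, 0.22 ± 0.34 and 0.13 ± 0.34, Fkbp9 by 0.11 ± 0.23, 0.14 ± 0.23 and 0.11 ± 0.23, and Fkbp14 by 0.09 ± 0.21, 0.10 ± 0.21 and 0.10 ± 0.22. None of these passed in either fit.

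**Figure D2:**
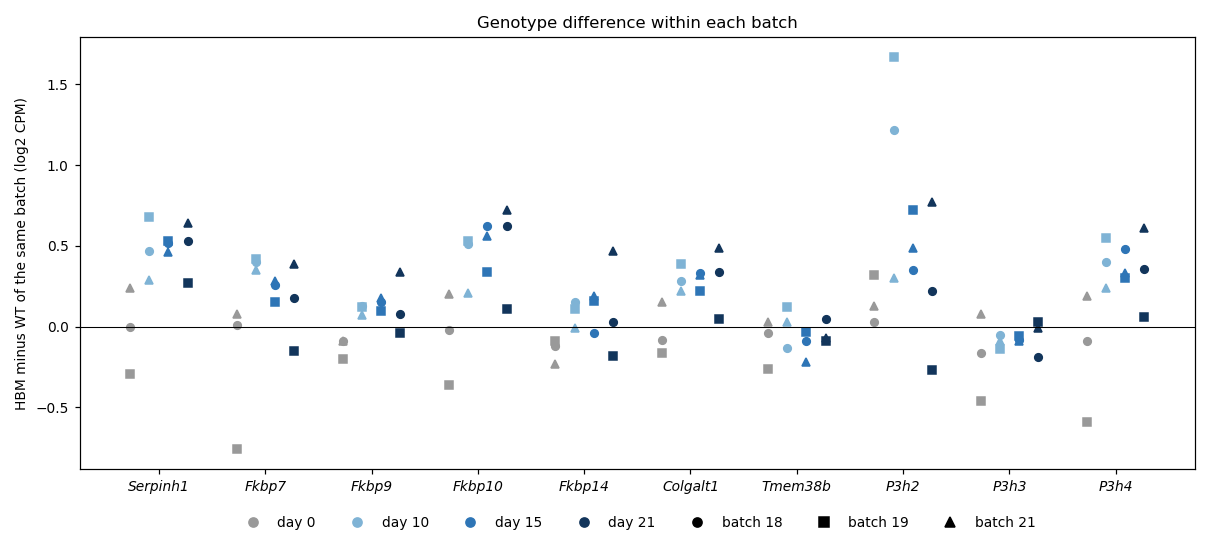
HBM minus WT of the same batch in log2 CPM (vertical axis) for each gene (horizontal axis), with one point per batch and day, coloured by day and shaped by batch. The points of Serpinh1 on days 10, 15 and 21 lie between 0.27 and 0.68, and those of P3h3 between -0.19 and 0.03.

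At day 0 Serpinh1, Fkbp10, Colgalt1 and P3h4 were higher in HBM in 1 of 3 batch pairs each. P3h2 was higher in 3 of 3, by 0.03, 0.32 and 0.13 on the log2 scale, and Fkbp9 and Fkbp14 were lower in 3 of 3. The differences within batches ran from -0.29 to 0.24 for Serpinh1, from -0.36 to 0.20 for Fkbp10 and from -0.59 to 0.19 for P3h4, with the lowest value in batch 19. The WT and HBM libraries of that batch both had higher summed cartilage markers, mostly Col2a1, than the others of their genotype on that day. None of the 10 genes passed in either fit, and the model log2 differences ran from -0.31 ± 0.34 for Fkbp7 to 0.13 ± 0.41 for P3h2.

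In counts of genes, edgeR's quasi-likelihood test without pairing called 0% of all genes, and 0 of the 10, on each of the 4 days, on the summed counts of a culture's 4 days, and for a genotype difference that changes with time. P3h2 and P3h4 had an unadjusted p under 0.05 in that test at day 10 (0.00684 and 0.0355) and on the summed counts (0.0308 and 0.0356). The share of all genes with an unadjusted p under 0.05 is not given here, so these values are not a result about these genes. DESeq2 called 0 of the 10 as well. The paired fit called 1 of the 10, P3h2 at day 10, where 0.669% of all genes were called higher and 0.639% lower. It called 0 of the 10 at day 0 (0.0121% of all genes higher, 0.115% lower), at day 15 (0.241% and 0.0904%) and at day 21 (0.157% and 0.0844%). With a batch term on the summed counts, and for the change with day in the paired fit, 0% of genes were called. A single batch term for all days also called 0 of the 10 on each day.

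One further fit was chosen after these values had been seen, and its calls carry that limit. It summed days 10, 15 and 21 of each culture with a batch term, and called 1.4% of 17728 genes higher in HBM. Of the 10 genes, P3h4 (log2 difference 0.38 ± 0.05, adjusted p = 0.0406), P3h2 (0.69 ± 0.10, 0.0467) and Fkbp10 (0.48 ± 0.07, 0.048) passed, while Serpinh1 (0.50 ± 0.08, 0.0501) and Colgalt1 (0.30 ± 0.05, 0.0536) did not. Without the batch term 0 passed, and the fit planned for this question, which sums all 4 days, called 0 with or without it.

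Marker levels of several cell types differed between the genotypes within batches. The summed osteoblast markers on days 10 to 21 were at 72700 to 105000 CPM in HBM and 44900 to 55000 CPM in WT of batch 18, at 83600 to 116000 and 51100 to 59300 CPM in batch 19, and at 43700 to 57700 and 22700 to 29600 CPM in batch 21. Col1a1 made up 95.1% to 99.3% of these sums. The other 5 markers summed to 2360 to 5030 CPM in HBM and 510 to 1840 CPM in WT of batch 18, to 3540 to 5080 and 1410 to 2860 CPM in batch 19, and to 320 to 2550 and 193 to 872 CPM in batch 21. One of them, the osteoblast transcription factor Runx2, differed by 0.16 ± 0.26 on the log2 scale at day 10. The rest differed more on that day, with a wide spread between cultures. Sp7 stood at 61.2 ± 38.4 CPM in WT and 145 ± 95.2 CPM in HBM (SD, n = 3), and Alpl at 149 ± 79.6 and 323 ± 214 CPM. Bglap stood at 57.5 ± 70.3 and 226 ± 182 CPM, and Ibsp at 357 ± 429 and 1300 ± 1140 CPM. The summed cartilage markers were lower in HBM in 8 of 9 batch pairs, and at day 10 stood at 964, 3400 and 4150 CPM in WT and 723, 1580 and 1480 CPM in HBM. The summed macrophage markers were lower in HBM in 7 of 9 pairs, and in batch 18 stood at 2540 to 4980 CPM in WT and 1470 to 2050 CPM in HBM. At day 10 they were higher in HBM in batch 19 (4080 against 2790 CPM) and batch 21 (10400 against 7820 CPM). The summed osteoclast markers, mostly Ctsk, were higher in HBM in 7 of 9 pairs and lower in 2. The part of these cell types in the result was not tested, and neither was that of the sex of the pools. In batch 21 Xist was near 0 in both genotypes and the summed macrophage markers, mostly Lyz2, were highest. There Serpinh1 was higher in HBM by 0.29 to 0.64, Fkbp10 by 0.21 to 0.72 and P3h4 by 0.24 to 0.61 on the log2 scale. These ranges come from a single batch and were not tested for sex or cell types.

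Genes that act beside the 10 were read from 5 lists. In the unpaired fit 0 genes of any list passed between genotypes on any day. The calls that follow come from the paired fit and carry its limit. In the paired fit Creb3l1, a membrane-bound transcription factor that drives secretory pathway genes in osteoblasts, was higher in HBM at day 10 (0.58 ± 0.10, adjusted p = 0.0173), day 15 (0.77 ± 0.10, 0.0207) and day 21 (0.71 ± 0.10, 0.0246). It was 1 of 8 genes of retrieval and export called on each of these days. Of 11 other modification enzymes, P4ha1, a subunit of prolyl 4-hydroxylase, was called at day 10 (1.33 ± 0.26, 0.0391), and of 7 collagen genes both chains of collagen I, Col1a1 (0.96 ± 0.15, 0.0298) and Col1a2 (0.86 ± 0.15, 0.0418), at day 15. Of 10 general chaperones 0 were called, and their median log2 difference in the unpaired fit was 0.09 at day 10, 0.08 at day 15 and 0.01 at day 21, beside 0.00, -0.01 and -0.01 over all genes. Of 3 other isomerases 0 were called.

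From day 0 to day 10, the isomerase Fkbp7 and P3h3 rose in both genotypes, and Serpinh1 and Fkbp10 passed in neither. In WT 2 of the 10 rose, Fkbp7 and P3h3, where 12.2% of all genes rose and 14.1% fell. In HBM 6 of the 10 rose, Fkbp7, Fkbp9, Fkbp14, P3h2, P3h3 and P3h4, where 14.1% rose and 12.4% fell. None fell. That a gene passed in HBM and not in WT does not show a difference between genotypes: the test of whether the genotype difference changes with time called 0 of the 10. With the culture as a block, 3 rose in WT (Fkbp9 in addition, adjusted p = 0.0321) where 19.7% of genes rose and 18.8% fell. In HBM 8 then rose (Colgalt1 and Tmem38b in addition, 0.0145 and 0.0441) where 20.5% rose and 17.7% fell.

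Fkbp7, an isomerase of the endoplasmic reticulum, changed most. It went from 38.1, 95.0 and 50 CPM to 158, 149 and 94.4 CPM in WT, and the groups overlapped only through the day 0 library of batch 19 and the day 10 library of batch 21. In HBM it went from 38.4, 56.0 and 53.0 CPM to 210, 200 and 121 CPM without overlap. The log2 change was 1.13 ± 0.34 in WT (adjusted p = 0.021) and 1.85 ± 0.34 in HBM (0.00108) by edgeR's quasi-likelihood test. P3h3 went from 200, 248 and 278 CPM to 477, 422 and 345 CPM in WT and from 179, 180 and 293 CPM to 461, 383 and 323 CPM in HBM. All day 10 libraries lay above all day 0 libraries in both genotypes, with log2 changes of 0.78 ± 0.20 (adjusted p = 0.0101) and 0.84 ± 0.20 (0.00625).

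Fkbp9 went from 659, 940 and 822 CPM to 1730, 1440 and 1200 CPM in HBM (log2 change 0.85 ± 0.23, edgeR adjusted p = 0.0131), and from 702, 1080 and 877 CPM to 1580, 1330 and 1150 CPM in WT (0.61 ± 0.23, 0.0622). Fkbp14, whose loss in people causes a form of Ehlers-Danlos syndrome, changed by 0.64 ± 0.22 in HBM (0.0348) and 0.41 ± 0.21 in WT (0.169). P3h4 changed by 0.62 ± 0.18 in HBM (0.0171) and 0.02 ± 0.18 in WT (0.935). P3h2 changed by 1.30 ± 0.41 in HBM (0.0281), where batch 21 went the other way, and by 0.16 ± 0.41 in WT (0.797). Serpinh1 changed by -0.21 ± 0.25 in WT and 0.35 ± 0.25 in HBM, and Fkbp10 by -0.20 ± 0.30 and 0.36 ± 0.30. These calls rest on few cultures. The share of all genes called in the fits that follow is not given here, so fewer calls with fewer samples are not a result about these genes. Without batch 18, 0 of the 10 passed in either genotype (Fkbp7 had a log2 change of 0.74 and an adjusted p of 0.281 in WT, and 1.55 and 0.0508 in HBM). Without batch 19, 1 passed in WT and 2 in HBM, and models of the 2 groups alone gave 0 and 2. Without batch 21 no WT call changed, while in HBM Fkbp14 lost its call (edgeR adjusted p = 0.0976) and Tmem38b gained one (0.0218). DESeq2 on all libraries called Fkbp9 in WT in addition (adjusted p = 0.0339).

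Leaving out a single library also changed calls. The share of all genes called is not given for these fits either, so these changes are not a result about these genes. The WT call of Fkbp7 was lost without the day 0 library of batch 18 (adjusted p = 0.0917) or 21 (0.0568), or the day 10 library of batch 18 (0.0748) or 19 (0.0646). Its log2 change in these 4 fits lay between 0.89 and 1.05, beside 1.13 with all libraries, and 1.14 in the model of the 2 groups alone. Without the day 0 library of batch 19, 3 passed in WT, Fkbp9 in addition (0.0389). In HBM, 2 passed without the day 0 library of batch 18, and 3 passed without the day 10 library of batch 18 or of batch 19.

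**Figure D3:**
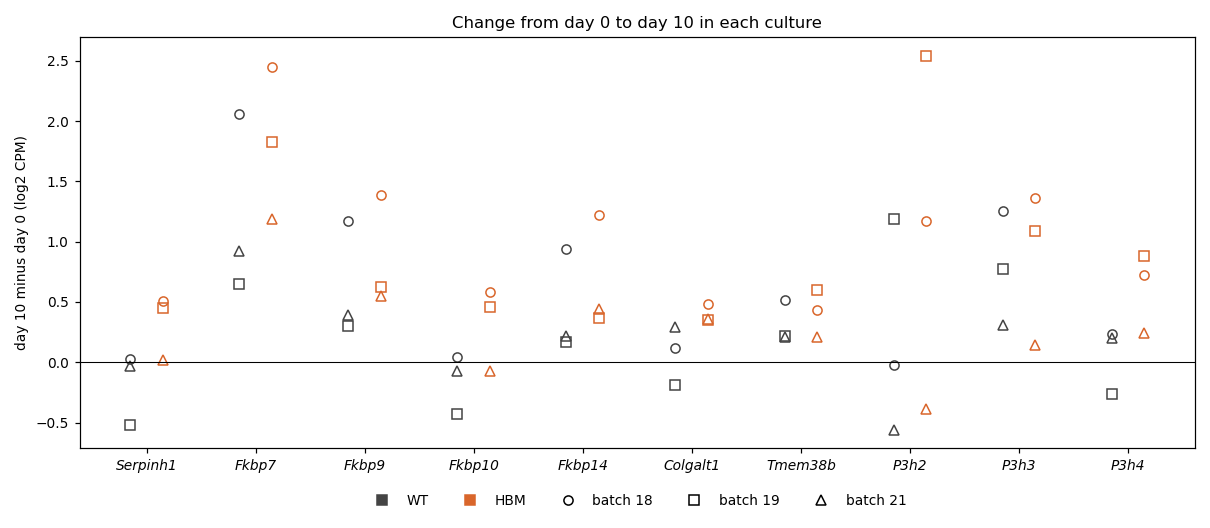
Change from day 0 to day 10 in log2 CPM (vertical axis) within each culture, for each gene (horizontal axis), with WT in grey and HBM in orange and a symbol for each batch. Fkbp7 is above 0 in all 6 cultures, at 0.65 to 2.45, and the batch 18 cultures give the largest change of Fkbp9, Fkbp14 and P3h3 in both genotypes.

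Over the same stretch some general chaperones of the endoplasmic reticulum fell. In WT, where 14.1% of all genes fell, 4 of 10 did: Canx (calnexin, log2 change -0.68 ± 0.11, edgeR adjusted p = 0.000311), Hyou1 (-0.80 ± 0.15, 0.00124), Hspa5 (BiP, -0.47 ± 0.13, 0.0127) and Hsp90b1 (GRP94, -0.38 ± 0.11, 0.0155). In HBM, where 12.4% of all genes fell, 3 of 10 did (Canx, Hyou1 and Hsp90b1), while 2 of 10 had a positive log2 change that did not pass. The list's median was -0.36 in WT and -0.20 in HBM, beside -0.02 and 0.00 over all genes. Of 11 modification enzymes 0 rose and 1 fell in WT, and 2 rose and 2 fell in HBM. Of 7 collagens 1 rose in WT and 3 in HBM. Of 3 other isomerases, Ppic rose in both genotypes (1.12 ± 0.32, 0.0159 in WT and 1.5 ± 0.32, 0.00271 in HBM) and Fkbp11 rose in HBM. Of 8 genes of retrieval and export 0 passed in either genotype.

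Between days 10 and 21 edgeR's quasi-likelihood test called 0 of the 10 and 0% of all genes in each genotype. With the culture as a block it called 0.554% of genes in WT and 0.0964% in HBM, and again 0 of the 10. Without the block, P3h2 in HBM alone had an unadjusted p under 0.05, with a log2 change of -0.95 ± 0.41 (adjusted p = 1 by edgeR's quasi-likelihood test). The share of all genes under that unadjusted threshold is not given here. DESeq2 called 0 of the 10 in both genotypes.

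Relative to collagen I RNA, which itself rose, Serpinh1 went down with time in both genotypes. Mean Col1a1 went from 24400 CPM at day 0 to 45500 CPM at day 21 in WT and from 27000 to 78500 CPM in HBM. Mean Serpinh1 went from 3460 to 2900 CPM in WT and from 3340 to 4020 CPM in HBM. Per 1000 of Col1a1 and Col1a2 together, all per kilobase of exon, it stood at 283 ± 10.4 in WT at day 0 (SD, n = 3) and at 142 ± 27.2, 143 ± 46.8 and 121 ± 22.9 on days 10, 15 and 21. In HBM it stood at 246 ± 26.9 and then at 124 ± 20.1, 105 ± 23.0 and 99.5 ± 17.5. All later libraries lay below all day 0 libraries of their genotype. Fkbp10 went from 49.3 ± 4.21 to 19.7 ± 3.46 in WT and from 41.4 ± 2.81 to 16.3 ± 3.53 in HBM between days 0 and 21. Fkbp7 went another way, from 8.06 ± 2.25 to 9.95 ± 1.91 in WT and from 5.93 ± 0.985 to 6.49 ± 1.40 in HBM, which is within the spread between cultures. For the rest of the 10 genes the mean ratio was also lower at day 21 than at day 0 in both genotypes. These ratios are given as a description and were not tested.

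**Figure D4:**
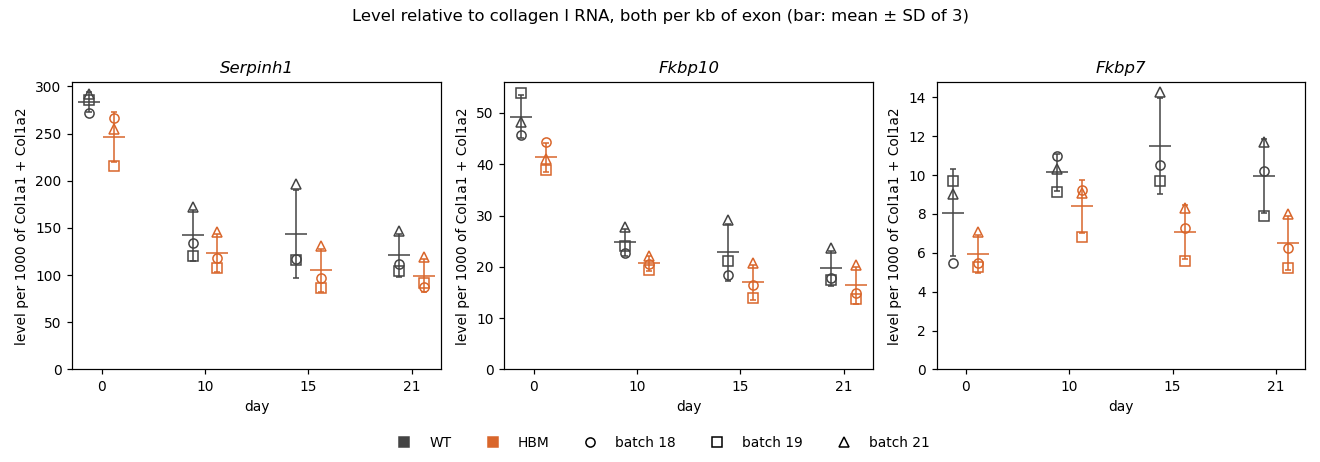
Level of Serpinh1, Fkbp10 and Fkbp7 per 1000 of summed Col1a1 and Col1a2, all per kilobase of exon (linear axes from 0), by day, with one point per library and the mean ± SD of 3. Serpinh1 lies at 216 to 292 at day 0 and at 86.7 to 197 on the later days.

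Across the 24 libraries, each gene's closest partners were the 3 genes with the smallest root mean square difference of centred log2 CPM, given as a description. Libraries share days, batches and cultures, so these values carry no test. Serpinh1 and Fkbp10 were each other's closest gene of all 16592, at 0.10. The second closest of Fkbp10 was P3h1 (0.12), the prolyl 3-hydroxylase of collagen I. Crtap, the partner of P3h1, was among the 3 closest of Fkbp9 (0.13). The 3 closest of Fkbp7 were Vkorc1 (0.18), Rcn3 (0.19) and Ctsk (0.25), and its closest gene among the other 9 was Fkbp9, at rank 144 (0.43). Fkbp14 had Fkbp9 at rank 4 (0.17), and P3h4 had Colgalt1 at rank 4 (0.15). P3h4 and Fkbp10, the head-to-head pair, were not among each other's 3 closest genes. P3h3 was closest to Sdf4 (0.13), Colgalt1 to Arfgap1 (0.10), Tmem38b to Pwwp2b (0.08) and P3h2 to Dixdc1 (0.40), and the nearest of the 10 to Tmem38b was at rank 1728.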

How the data were processed

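The submitters' processing notes name cutadapt 3.4, STAR 2.7.8a, Subread 2.0.1 with featureCounts, and mm10, without their settings. The deposited values are raw counts per gene, with 24 columns, all used. Of 54232 rows, 54164 matched GENCODE M21 (at most 0.00337% of a library's counts did not). Depth was 28039095 to 46987734 per library. Without molecular identifiers, counting error understates the real error. Without a block, p-values rest on the spread between libraries within groups or, on summed counts, between cultures. With a block they rest on the spread that the block leaves.

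Counts were tested in R 4.3.3 with edgeR 4.0.16 (quasi-likelihood F test, TMM factors 0.866 to 1.11, filter on low counts, Benjamini-Hochberg over all genes tested, threshold 0.05), in 1 model of the 8 groups, or on counts summed per culture (18387 genes). The 8-group model treats libraries of different days as independent. The summed counts and the culture block instead read a batch number as the same culture on all days, which the labels do not say outright. CPM values use TMM library sizes, those of Xist plain totals. The script was tested on simulated data. DESeq2 1.42.0, other scaling, no filter, models of 2 groups, each batch and each library left out, and blocks were alternatives.

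The labels' batch tag pairs the samples. Deviations from group means correlated at 0.523 to 0.796 between WT and HBM of the same batch and day, and at most 0.122 between batches. The paired fit has a batch term for each day, since day 0 deviated from later days of its culture (correlations of -0.00678 to 0.434, against 0.408 to 0.778 among later days). An earlier analysis of these counts had introduced that fit after seeing its results.

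The 10 genes, the lists and the rules were chosen with earlier results of these data known. All 10 genes are named in every comparison, at most 4 genes of a list are named per comparison by smallest p, and the 3 closest genes of each of the 10 are taken by root mean square difference. 

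Further fits were added after the data had been seen: days 10 to 21 summed without and with a batch term, days 10 to 21 alone with the culture as a block, and edgeR's robust quasi-dispersion. The last was found by trying settings until the number of genes called matched an earlier analysis. The plain setting, which had been written down first, was kept as the main one.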

Additional observations from a re-analysis of the deposited data

How the results depend on the processing

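Between genotypes, the count of the 10 genes called was 0 under all planned settings on every day, on summed counts and for the change with day, except for the replicate block within day at day 10, which called 1 (P3h2). An earlier analysis had introduced that block after seeing its results. Without the block, leaving out 1 library or culture at a time kept the count at 0 in each of these comparisons. Settings added after the data had been seen gave other counts. With robust quasi-dispersion and the replicate block within day, 1 was called at day 10 (P3h2, adjusted p = 0.0446). With days 10, 15 and 21 summed and the replicate block, 3 were called, and with robust quasi-dispersion in that fit 4 (Serpinh1 in addition, 0.0416). Robust quasi-dispersion without a block gave the same counts of the 10 as the plain setting in every comparison.

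For day 10 against day 0, 2 genes were called in WT and 6 in HBM. DESeq2 called Fkbp9 in WT in addition (adjusted p = 0.0339) and changed no other call. Models of the 2 groups alone gave 0 and 2, leaving out batch 18 gave 0 and 0, and leaving out batch 19 gave 1 and 2. Leaving out batch 21 changed no WT call. In HBM, Fkbp14 then lost its call (edgeR adjusted p = 0.0976) and Tmem38b gained one (0.0218). Leaving out 1 library gave 1 to 3 in WT and 2 to 6 in HBM. The share of all genes called is not given for the fits that hold fewer samples. The causes were not tested. Over single genes and planned settings, 804 values outside the leave-one-out fits and 762 within them stayed on their side of the threshold, 20 and 16 lost a call and 6 and 2 gained one. Among these, 22 and 64 changed sign, and since they passed in neither fit they were not counted as reversals. No called value changed sign. The replicate block (pairing) changed no other call than those given here and beside the results. P3h2, at 1.96 to 14.2 CPM, rests on the fewest counts of the 10.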
